A study of Rattus norvegicus with 40 samples.

Results

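The list described here holds 46 genes and is named for mitosis and cytokinesis. Top2a, Trim59, Parpbp and Cep128 were grouped as other, outside its named roles. The 46 genes were chosen as a named list of cell division genes and were matched to the array through the platform's gene symbols. Only probe sets, called transcript clusters, that carry a single symbol were taken. For a gene with several such clusters the one with the highest mean over all arrays was used, which applied to Ccnb2. Of the 46 genes, 42 had a cluster, out of 14497 genes with a single-symbol cluster on the array, and Cenpe, Cenpf, Spc24 and Anln had none and were not analysed here. A filter on low mean level left 41 of the 42 for testing. Melk, a kinase of the G2/M phase, fell below it, and its values are given without a test.

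RNA from livers of Sprague Dawley rats had been hybridised to 40 Affymetrix microarrays of the Rat Gene 1.0 ST type. The 12 groups combined 3 models, 2 treatments and 2 RNA fractions. In the fasted-refed model, adult rats of 125 to 150 g had gone without food for 48 h, received rapamycin into the peritoneum at a dose of 250 µg per 100 g body weight, or only its vehicle dimethyl sulfoxide (DMSO), and were given food 1 h later for 3 h. In the partial hepatectomy (PHx) model, adult rats of the same weight received the same doses 1 h before most of the liver was removed, and the regenerating remnant was taken 24 h after surgery. In the fetal model, fetuses received DMSO or 50 µg of rapamycin on gestation day 19 and the livers were taken on day 20. Rapamycin inhibits mTOR complex 1, a kinase complex that couples nutrients and growth factors to translation and growth. Total RNA and RNA from polysomes, the fraction of messenger RNA loaded with ribosomes, were hybridised separately. There were 3 numbered replicates, called livers here, per adult group and 4 per fetal group. The polysomal RNA came from pooled preparations, and the labels do not say whether that means animals or gradient fractions. The submitters describe hepatocytes as not dividing after refeeding, dividing in synchrony after hepatectomy, inhibited from dividing by rapamycin after hepatectomy, and dividing out of phase in the fetus. The arrays measured whole liver RNA, so fewer cells in mitosis and less of a transcript per cell cannot be told apart.

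For the 3 polysomal DMSO arrays of the PHx model, 1 label field gives the refeeding time point, against the title and the injection field of the same arrays. The mean log2 intensity of the 42 genes on those arrays was 9.82, 10.26 and 9.94, against 5.98 to 6.21 on the 6 polysomal arrays of refed livers. They were kept in the PHx group that their titles give. Array medians lay between 7.09 and 7.40 on the log2 scale over all 40 arrays, and no 2 arrays held the same values. The hepatocyte markers (Alb, Ttr, Apoa1 and others, 12 genes) had a mean log2 level between 13.50 and 13.85 on every array, in keeping with the labelled tissue.

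Entry into mitosis is driven by cyclin B bound to the kinase CDK1, with the kinases Aurora A and PLK1 building the spindle. The spindle checkpoint holds the anaphase-promoting complex until kinetochores are attached, after which securin and cyclin B are destroyed, chromatids separate and the central spindle directs the final cut between daughter cells. Transcripts of these proteins accumulate late in the cell cycle and are scarce in resting adult liver, whose hepatocytes rarely divide, and they return when liver regenerates or grows before birth.

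Many promoters of late cell cycle genes carry the letters TTTGAA or TTTAAA, known as the cell cycle genes homology region and bound by the DREAM and MMB-FOXM1 complexes, beside CCAAT boxes bound by NF-Y. RefSeq start sites of the GRCr8 build matched 36 of the 42 genes, from 250 bases before to 50 bases after the start. TTTGAA or TTTAAA, on either strand and with overlapping matches counted, stood in 31 of the 36 (86.1%), against 27.9% of 27457 rat promoters of the same length. CCAAT on either strand stood in 26 (72.2%) against 37.7%, and both kinds together in 22 (61.1%) against 11.1%. Between 100 bases before the start and 50 after it, TTTGAA or TTTAAA stood in 29 of 36 (80.6%) against 13.1%. Of 49 other mitosis genes with a promoter, 32 (65.3%) held TTTGAA or TTTAAA, 32 (65.3%) held CCAAT and 22 (44.9%) held both. Of 38 DNA replication genes with a promoter, 6 (15.8%) held TTTGAA or TTTAAA and 22 (57.9%) held CCAAT. A match is a description of the letters and not a measured binding site.

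The 150 bases before the start of 8 of these genes are printed 5′ to 3′ on the gene's strand, with each match to these motifs, on either strand, in capitals. They show the spacing of the letters in genes of different steps of division, and Stmn1 shows a promoter with a CCAAT box alone. The windows are chr2:33655226-33655375 for Ccnb1 (minus strand), chr8:79981659-79981808 for Ccnb2 (minus), chr20:19265143-19265292 for Cdk1 (plus), chr5:137255800-137255949 for Cdc20 (minus), chr10:28406327-28406476 for Pttg1 (minus), chr1:143659331-143659480 for Prc1 (plus), chr10:84473094-84473243 for Top2a (minus) and chr5:151965029-151965178 for Stmn1 (plus).
Ccnb1: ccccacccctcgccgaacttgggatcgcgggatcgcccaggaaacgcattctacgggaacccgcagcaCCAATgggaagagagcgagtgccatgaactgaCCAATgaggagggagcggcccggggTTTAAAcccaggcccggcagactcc
Ccnb2: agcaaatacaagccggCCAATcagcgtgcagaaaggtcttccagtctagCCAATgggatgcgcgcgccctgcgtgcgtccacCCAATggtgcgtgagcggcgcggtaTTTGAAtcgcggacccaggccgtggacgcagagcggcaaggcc
Cdk1: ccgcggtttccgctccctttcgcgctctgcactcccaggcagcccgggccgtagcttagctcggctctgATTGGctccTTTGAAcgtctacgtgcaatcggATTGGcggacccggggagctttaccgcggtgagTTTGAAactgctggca
Cdc20: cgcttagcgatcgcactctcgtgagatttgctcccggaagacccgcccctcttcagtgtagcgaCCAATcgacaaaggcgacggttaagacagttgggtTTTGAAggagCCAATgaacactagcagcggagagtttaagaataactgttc
Pttg1: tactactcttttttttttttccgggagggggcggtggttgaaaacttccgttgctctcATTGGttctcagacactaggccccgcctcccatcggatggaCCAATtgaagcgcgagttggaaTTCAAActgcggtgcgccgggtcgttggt
Prc1: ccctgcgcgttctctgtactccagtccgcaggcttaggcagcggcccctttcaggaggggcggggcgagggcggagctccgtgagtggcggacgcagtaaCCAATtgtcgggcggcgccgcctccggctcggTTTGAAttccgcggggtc
Top2a: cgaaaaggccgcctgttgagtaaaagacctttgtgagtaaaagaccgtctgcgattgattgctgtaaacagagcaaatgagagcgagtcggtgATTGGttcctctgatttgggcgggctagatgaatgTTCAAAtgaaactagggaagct
Stmn1: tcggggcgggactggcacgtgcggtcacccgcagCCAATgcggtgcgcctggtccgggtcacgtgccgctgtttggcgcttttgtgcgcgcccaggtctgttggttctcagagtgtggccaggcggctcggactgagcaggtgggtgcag
In Ccnb2 the TTTGAA begins 43 bases before the start, with CCAAT boxes beginning 134, 101 and 68 bases before it. In Ccnb1 the TTTAAA begins 25 bases before the start, after CCAAT boxes at 82 and 50 bases. Cdk1 carries TTTGAA at 72 and 16 bases. Trim59, Nek2, Melk, Stmn1 and Cep128 had neither TTTGAA nor TTTAAA in the whole 300-base window, and of these Melk alone also had no CCAAT.

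The plot of all 42 genes on all 40 arrays shows low levels in every refed liver and high levels in regenerating and fetal livers. In refed livers most of the genes could not be told from unexpressed probes. The yardstick was the 95th percentile of 59 clusters of olfactory receptors, which liver is not known to express, in the same group. At or below it lay 39 of 42 genes in refed total RNA with DMSO and 35 with rapamycin, and 32 and 31 in the corresponding polysomal RNA. In all 4 refed groups 31 genes were at or below it, and Incenp, Stmn1 and Ube2c were above it throughout. In the PHx groups 0 to 2 genes were at or below the yardstick, and in the fetal groups 0 or 1. Melk is among those 31 genes and did not pass the filter. The others passed it through their levels in dividing liver, and their folds against refed liver may understate the change and have no exact size.

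**Figure D1:**
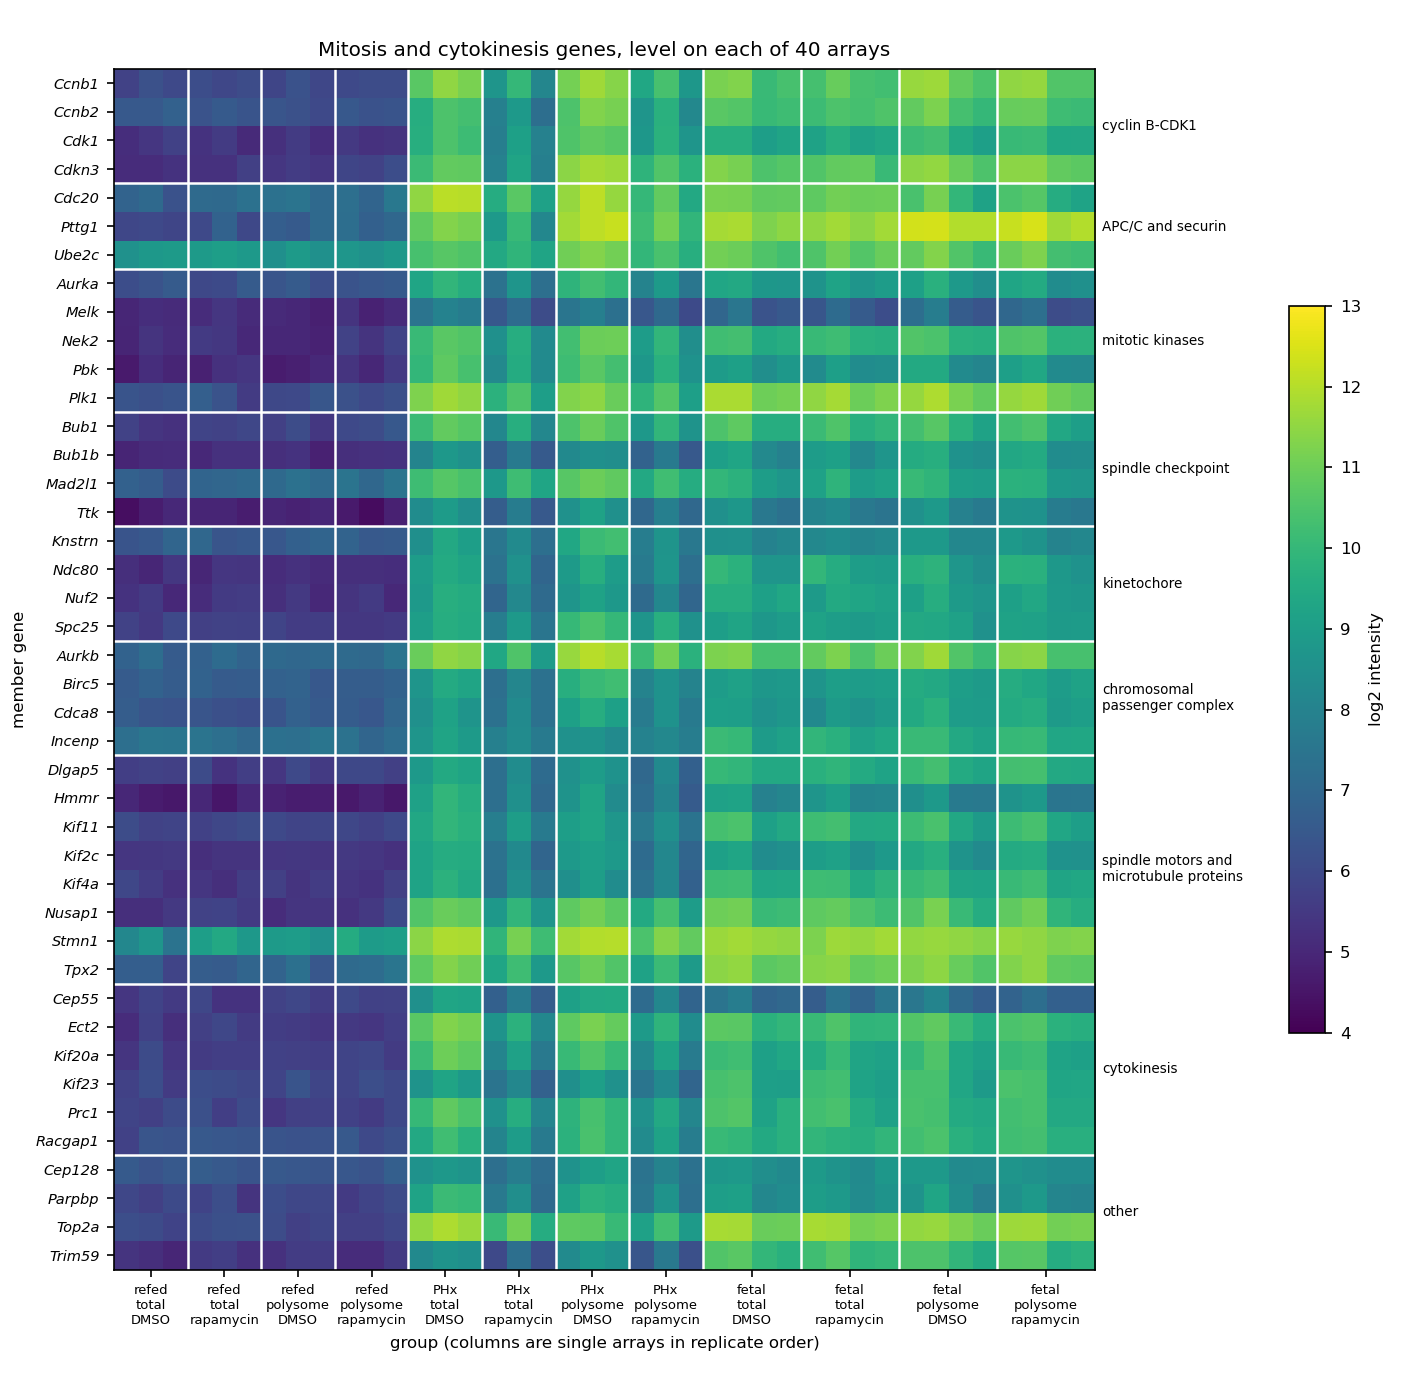
Log2 intensity (colour) of the 42 mitosis and cytokinesis genes (rows, grouped by role) on the 40 arrays (columns, grouped by model, RNA fraction and treatment; PHx is partial hepatectomy). Refed columns are darkest, with Stmn1 and Ube2c the lightest rows there, PHx columns are lighter with DMSO than with rapamycin, and each fetal group holds lighter columns for livers 1 and 2 than for 3 and 4.

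The first comparison asked how far the genes differ between resting and regenerating adult liver. In total RNA with DMSO, all 41 tested genes were higher after PHx than after refeeding by limma at an adjusted p under 0.05, by a median of 3.93 on the log2 scale (range 1.5 to 5.69). The share of all 10860 tested clusters called higher was 12.4%, and their median difference was 0.02. The same threshold applies to every count of calls, with p-values adjusted by the Benjamini-Hochberg method over all 10860 clusters. Because the models were run in different animals with different surgery and feeding, the model and its handling cannot be told apart.

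Among the genes of cyclin B and CDK1, Ccnb1, which encodes cyclin B1, stood at 5.79, 6.24 and 5.99 in the 3 refed livers and at 10.71, 11.49 and 11.18 in the 3 regenerating ones. The groups lay far apart, and the difference was 5.12 ± 0.39 (SE, n = 3 and 3; adjusted p = 9.72e-12). Cdk1 was at 5.18, 5.43 and 5.75 against 9.66, 10.47 and 10.16, again with no overlap, a difference of 4.65 ± 0.31 (adjusted p = 3.42e-13). Cdkn3, a phosphatase that acts on CDK1, differed by 5.38 ± 0.30.

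Of the genes that open anaphase, Cdc20, the activator of the anaphase-promoting complex, was at 6.85, 7.09 and 6.28 in refed and at 11.51, 12.06 and 12.02 in regenerating livers. Pttg1, which encodes securin, was at 5.91, 5.98 and 5.89 against 10.81, 11.34 and 11.17. Both sets lay far apart, with differences of 5.12 ± 0.39 and 5.18 ± 0.31. Ube2c, the ubiquitin-conjugating enzyme of that complex, was already at 8.55, 8.81 and 8.91 in refed livers and reached 10.38, 10.66 and 10.53, a smaller difference of 1.77 ± 0.26 with no overlap (adjusted p = 5.21e-06).

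The mitotic kinase Plk1 rose from 6.34, 6.18 and 6.34 to 11.26, 11.71 and 11.50, by 5.21 ± 0.34. The checkpoint kinase Bub1b went from 4.93, 5.10 and 5.16 to 8.07, 8.79 and 8.56, by 3.41 ± 0.36, and the kinetochore gene Ndc80 from 5.20, 4.95 and 5.47 to 8.96, 9.51 and 9.25, by 4.04 ± 0.41. In each of the 3 the lowest regenerating liver was above the highest refed one. The chromosomal passenger complex, which corrects attachments and moves to the central spindle, had smaller differences: its scaffold Incenp, above background in refed liver, differed by 1.5 ± 0.27, and its subunit Birc5 (survivin) by 2.49 ± 0.21.

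At the other end, Ect2, the exchange factor that activates RhoA at the cleavage furrow, stood at 5.13, 5.73 and 5.21 in refed and 10.69, 11.31 and 11.12 in regenerating livers, a difference of 5.69 ± 0.35. Top2a, the topoisomerase that untangles chromatids, was at 6.16, 6.07 and 5.80 against 11.55, 11.91 and 11.63, a difference of 5.69 ± 0.31. Both genes were below the background yardstick in refed liver, so the size of these differences is not exact. Melk, not tested, had a mean of 5.07 ± 0.11 (SD, n = 3) in refed and 7.74 ± 0.27 in regenerating livers.

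**Figure D2:**
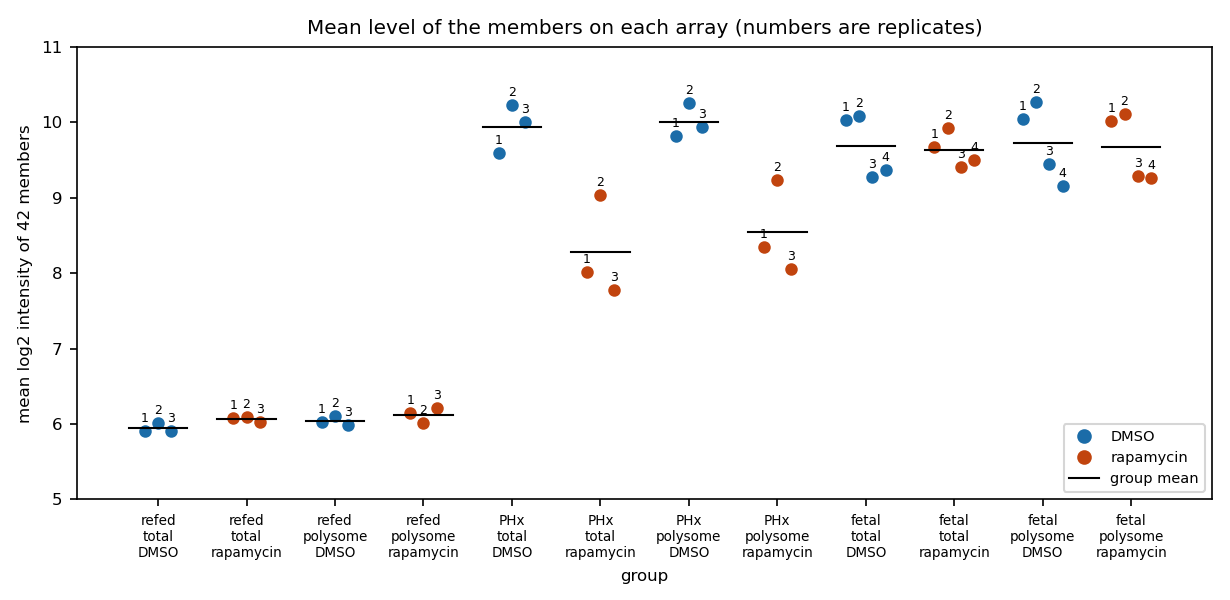
Mean log2 intensity of the 42 genes on each array (points, labelled with the replicate number) by group, with the group mean as a line; blue is DMSO and orange is rapamycin. Refed arrays lie between 5.91 and 6.21, PHx arrays with rapamycin lie below those with DMSO in both fractions, and fetal livers 1 and 2 lie above 3 and 4.

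The second comparison asked what rapamycin did in the regenerating liver. In total RNA, 37 of 41 genes were called lower, against 3.54% of all clusters. The median difference was -1.65 over the 41 (range -2.34 to -0.98) and -0.01 over all clusters. Counts of genes that fell are counts of such calls, and all 41 differences were below 0 in both fractions. In polysomal RNA, 29 of 41 fell, against 4.1% of all clusters, with a median of -1.45 (range -2.09 to -0.50). The 3 rapamycin arrays were all below the 3 DMSO arrays for 41 of 41 genes in total RNA, where 17.8% of all clusters had that pattern, and for 40 of 41 in polysomal RNA, where 15.6% had it. Incenp was not among the called polysomal genes, at -0.50 ± 0.18 (adjusted p = 0.113).

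In the cyclin B group 4 of 4 genes fell in both fractions, and its median of -2.16 in total RNA was the lowest of the roles. Ccnb1 was at 10.71, 11.49 and 11.18 in total RNA with DMSO and at 8.68, 10.00 and 8.13 with rapamycin. The groups did not overlap, and the second rapamycin liver came closest to the DMSO livers. The difference was -2.19 ± 0.45 (n = 3 and 3; adjusted p = 0.0258), leaving 21.9% of the DMSO level. On polysomes Ccnb1 was at 11.13, 11.70 and 11.35 against 9.37, 10.39 and 8.77, a difference of -1.88 ± 0.45 (adjusted p = 0.0363).

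Ccnb2, cyclin B2, behaved alike: total RNA gave 9.60, 10.49 and 10.32 against 7.93, 8.87 and 7.24, and polysomal RNA 10.49, 11.29 and 11.14 against 8.71, 9.73 and 8.21. Both sets were separated, with differences of -2.12 ± 0.44 (adjusted p = 0.0257) and -2.09 ± 0.44 (adjusted p = 0.0257). Its second cluster gave -2.60 ± 0.58 in total and -2.27 ± 0.58 in polysomal RNA. Cdk1 in total RNA was at 9.66, 10.47 and 10.16 against 7.84, 9.12 and 7.96, a difference of -1.79 ± 0.34 (adjusted p = 0.0218), and on polysomes the difference was -1.60 ± 0.34.

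Among the anaphase genes, 3 of 3 fell in both fractions. Cdc20 was at 11.51, 12.06 and 12.02 in total RNA with DMSO and at 9.58, 10.71 and 9.16 with rapamycin, a difference of -2.05 ± 0.39. Pttg1 was at 10.81, 11.34 and 11.17 against 8.83, 10.07 and 8.17, a difference of -2.08 ± 0.41. In both genes all rapamycin livers were below all DMSO livers. Ube2c, the gene of this role already present in refed liver, went from 10.38, 10.66 and 10.53 to 9.42, 9.88 and 9.27, a difference of -1.0 ± 0.19 that left 50.0% of the DMSO level (adjusted p = 0.0218).

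Of the mitotic kinases, 4 of 4 tested fell in both fractions. Aurka, the spindle pole kinase, was at 9.28, 9.94 and 9.60 in total RNA against 7.41, 8.71 and 7.28, and Plk1 at 11.26, 11.71 and 11.50 against 9.78, 10.48 and 9.06. Each set was separated, by -1.81 ± 0.38 and -1.72 ± 0.37. The untested Melk had group means of 7.74 ± 0.27 and 6.59 ± 0.55 in total RNA (SD, n = 3 each).

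In the spindle checkpoint 3 of 4 were called lower in each fraction, and Mad2l1, the checkpoint inhibitor of CDC20, was not called in either. It was at 10.21, 10.64 and 10.42 in total RNA with DMSO and at 8.81, 10.20 and 9.29 with rapamycin, where the second rapamycin liver lay just below the lowest DMSO liver. Its difference was -0.99 ± 0.30 (adjusted p = 0.0748). Bub1b, at 8.07, 8.79 and 8.56 against 6.69, 7.66 and 6.56, fell by 1.5 on the log2 scale (SE 0.32, adjusted p = 0.0274).

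At the kinetochore 3 of 4 genes fell in total RNA and 2 of 4 on polysomes. Ndc80, the microtubule-binding subunit, was at 8.96, 9.51 and 9.25 against 7.41, 8.57 and 6.94 in total RNA, a difference of -1.60 ± 0.41 (adjusted p = 0.0451). On polysomes its difference was -1.31 ± 0.41 (adjusted p = 0.0749), short of the threshold. Knstrn, a kinetochore protein of attached chromosomes, was called only on polysomes. Its difference was -1.28 ± 0.35 (adjusted p = 0.0568) in total RNA and -1.90 ± 0.35 (adjusted p = 0.0186) on polysomes.

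In the chromosomal passenger complex, 3 of 4 genes fell in each fraction. Aurkb, the kinase of the complex, was at 10.93, 11.49 and 11.36 in total RNA with DMSO and at 9.37, 10.52 and 8.93 with rapamycin, a difference of -1.65 ± 0.39 (adjusted p = 0.0360). Birc5 was at 9.65, 10.11 and 10.25 on polysomes with DMSO and at 8.03, 8.60 and 8.04 with rapamycin. Its groups were far apart, and its difference of -1.78 ± 0.27 had the lowest adjusted p of the list on polysomes (0.00888). In total RNA Birc5 differed by -1.56 ± 0.27. Incenp was at 8.70, 9.25 and 8.91 against 7.91, 8.34 and 7.67 in total RNA, a difference of -0.98 ± 0.18 (adjusted p = 0.0213).

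Of 8 spindle motors and microtubule proteins, 8 fell in total RNA and 3 on polysomes. Kif11, the motor that separates the spindle poles, was at 9.40, 9.92 and 9.73 against 7.84, 9.0 and 7.67 in total RNA, and at 9.03, 9.30 and 8.72 against 7.64, 8.53 and 7.44 on polysomes. The groups were separated in both fractions, with differences of -1.52 ± 0.34 (adjusted p = 0.0319) and -1.15 ± 0.34 (adjusted p = 0.0657). Tpx2, an activator of Aurora A on the spindle, was at 10.77, 11.34 and 11.06 against 9.29, 10.22 and 8.88 in total RNA, a difference of -1.59 ± 0.34 (adjusted p = 0.0280). Stmn1, a microtubule-destabilising protein, was at 11.42, 11.90 and 11.87 against 9.89, 11.17 and 10.21, a difference of -1.30 ± 0.29 (adjusted p = 0.0314).

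Of the cytokinesis genes, 6 of 6 fell in total RNA and 4 of 6 on polysomes. Kif20a, a motor of the central spindle, had the largest difference of the list in total RNA, from 10.12, 11.01 and 10.75 to 8.07, 9.16 and 7.64, by -2.34 ± 0.41, or to 19.8% of the DMSO level (adjusted p = 0.0199). Ect2 went from 10.69, 11.31 and 11.12 to 8.61, 9.77 and 8.15, by -2.20 ± 0.40. Both sets were separated. Kif23 and Prc1, which bundle central spindle microtubules, differed on polysomes by -1.14 ± 0.36 and -1.33 ± 0.38 and were short of the threshold there.

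Top2a was at 11.55, 11.91 and 11.63 against 10.11, 11.08 and 9.58 in total RNA, a difference of -1.44 ± 0.39 that missed the threshold (adjusted p = 0.0520), and at 10.75, 10.72 and 10.06 against 9.14, 10.28 and 8.91 on polysomes, a difference of -1.07 ± 0.39 (adjusted p = 0.109). Cep128, a centriole protein, had a smaller difference with a smaller error, -1.25 ± 0.21 in total (adjusted p = 0.0199) and -1.35 ± 0.21 on polysomes (adjusted p = 0.0106). Trim59 and Parpbp fell by 1.99 and 2.07 on the log2 scale in total RNA.

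**Figure D3:**
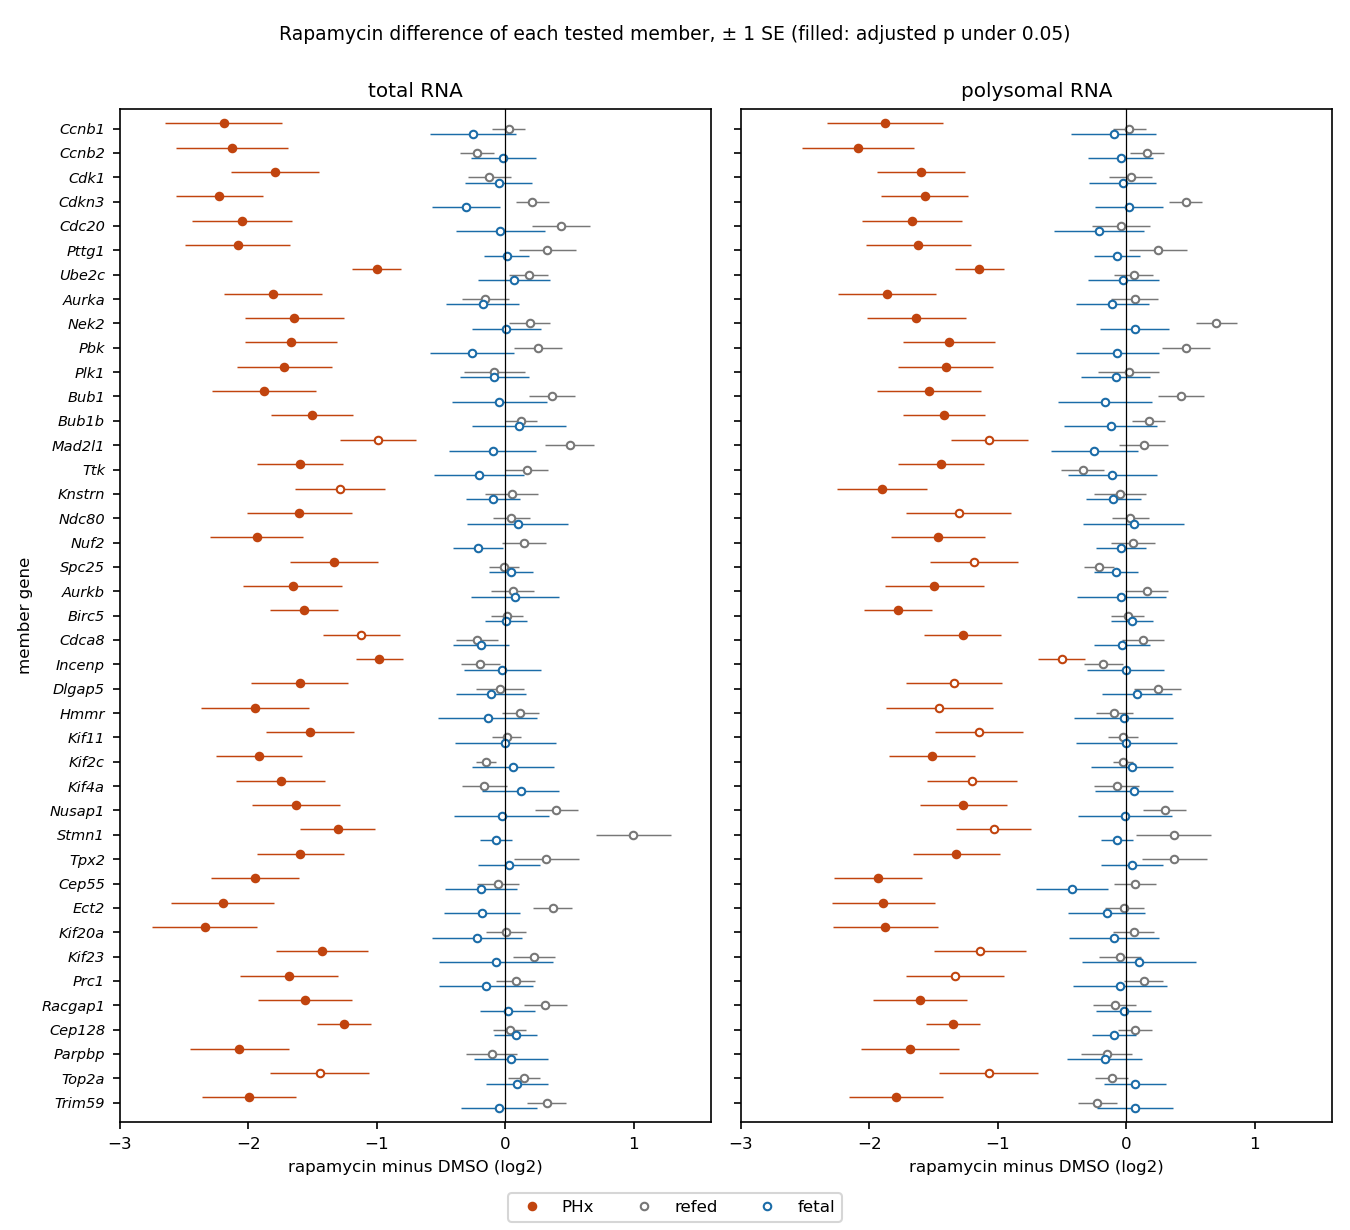
Rapamycin minus DMSO on the log2 scale (x axis, ± 1 SE) for the 41 tested genes (y axis) in total RNA (left) and polysomal RNA (right), for PHx, refed and fetal livers; filled points passed an adjusted p under 0.05. PHx points lie between -2.34 and -0.50 with 37 filled on the left and 29 on the right, and no refed or fetal point is filled.

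The number of calls changed with single arrays. The mean of the 42 genes was 8.01, 9.04 and 7.78 in total RNA and 8.35, 9.24 and 8.06 on polysomes with rapamycin, so the second liver was the highest in both fractions. Without it, 41 of 41 genes were called lower in total RNA and 40 on polysomes. The shares of all clusters given above belong to the full fit and are not given for fits without an array. Without the first or the third rapamycin array, or without the second or the third DMSO array, 0 genes were called in total RNA, and on polysomes 3, 2, 2 and 3 genes were called. Without the first DMSO array the counts were 39 and 31. All 41 differences stayed below 0 in each of these fits. On polysomes, Birc5 and Cep128 were called in every one of them.

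Genes of related function were lower too, in part. Of all clusters, 3.54% were called lower in total RNA and 4.1% on polysomes. Of 55 other mitosis genes on the array, 51 were tested, 36 fell in total RNA and 28 on polysomes, with a median of -1.14 and -0.93; Kif22, Ska3, Cdca3 and Ccna2 differed by -1.94, -1.85, -1.83 and -1.82 in total RNA. Of 44 DNA replication genes, 9 fell in total RNA and 8 on polysomes, with a median of -0.59 and -0.54. Rrm2, Rfc4, Tk1 and Dut, which act in nucleotide supply and clamp loading, differed by -1.24, -1.14, -1.04 and -1.01, while the helicase subunit Mcm2 stood at -0.09 ± 0.22 and Pcna at -0.52 ± 0.24, neither called. The DNA replication genes were higher after PHx than after refeeding in 42 of 44 cases, by a median of 1.77. In that comparison, total RNA with DMSO, 12.4% of all clusters were called higher.

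Of 17 regulators of cell cycle transcription, 5 fell in total RNA, where 3.54% of all clusters were called lower. Mybl2 and Foxm1, the activators of late cell cycle promoters, differed by -1.35 ± 0.25 (adjusted p = 0.0213) and -1.24 ± 0.25 (adjusted p = 0.0257), and by -1.28 ± 0.25 and -1.31 ± 0.25 on polysomes. E2f5 and E2f8 differed by -1.21 and -0.99 in total RNA. E2f1 was at -0.45 ± 0.29 in total RNA and 0.05 ± 0.29 on polysomes, neither called, and Nfya, a subunit of the CCAAT-binding factor, at 0.13 ± 0.11.

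Markers of other liver cells gave no matching fall. Of 12 hepatocyte markers, 0 fell in total RNA and the median was 0.02. Of 13 endothelial markers, 4 rose in total RNA and 5 on polysomes, where 1.47% and 2.26% of all clusters were called higher, with medians of 0.26 and 0.38. Of 12 tested stellate cell markers, 0 rose in total RNA and 1 on polysomes, with medians of 0.32 and 0.29, and their mean level was 9.11 to 9.26 with DMSO and 9.46 to 9.61 with rapamycin in total RNA. Of 12 macrophage markers, 0 rose in total RNA and 1 on polysomes, with medians of 0.02 and 0.27, and their mean level on polysomes was 9.60 to 10.15 against 10.22 to 10.31. Of 16 erythroid markers, 1 fell in total RNA, where 3.54% of all clusters were called lower. The mean level of the 16 was between 7.76 and 8.47 on all PHx arrays. The part of these shifts in the results was not tested.

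With rapamycin in both models, most genes were still higher after PHx: 38 of 41 were higher in PHx than in refed livers in total RNA, against 3.9% of all clusters, with a median of 2.31 (range 0.59 to 4.10). Ube2c, Incenp and Trim59 were not called, at 0.59 ± 0.26, 0.72 ± 0.27 and 0.98 ± 0.34. Plk1 was 3.57 ± 0.34 higher and Top2a 4.10 ± 0.31.

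In refed livers 0 of the 41 genes passed the test of rapamycin by limma in either fraction, and no cluster of the 10860 passed (0%). Leaving out refed total DMSO array 2 gave 2 genes higher with rapamycin in total RNA. At an unadjusted p under 0.05 there were 4 genes in each fraction, against 16.9% of all clusters in total RNA and 4.84% on polysomes. The medians were 0.08 and 0.05. For the 31 genes near background in all refed groups a fall could not have been measured. Stmn1, which was above background, was at 8.17, 8.68 and 7.44 with DMSO and at 9.05, 9.43 and 8.80 with rapamycin in total RNA. The groups did not overlap and the third DMSO liver was the lowest, but the difference of 1.00 ± 0.29 was not called (adjusted p = 0.237). On polysomes Stmn1 was at 8.91, 8.96 and 8.55 against 9.54, 8.94 and 9.05, which overlap. Ube2c, the other gene of high refed level, was at 8.55, 8.81 and 8.91 against 8.90, 9.03 and 8.88.

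In fetal livers, where the genes were high, no gene passed the test of rapamycin. In both fractions 0 of 41 were called by limma and 0 had an unadjusted p under 0.05, and 0% of all clusters were called. The medians were -0.04 in both fractions (range -0.30 to 0.12 in total RNA and -0.43 to 0.10 on polysomes). For 0 genes did the groups separate. Among all clusters, 0.663% in total RNA and 1.27% on polysomes had every rapamycin array lower, and 0.304% and 0.47% had every one higher. The 95% intervals of the 41 differences reached down to -1.01 in total RNA and -1.02 on polysomes, so falls up to such sizes are not excluded for every gene. These limits are not the smallest fall that the test could have called.

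Ccnb1 was at 11.19, 11.28, 10.10 and 10.37 in fetal total RNA with DMSO and at 10.35, 10.92, 10.39 and 10.28 with rapamycin. The groups overlapped, and the difference was -0.25 ± 0.33 (95% interval -0.96 to 0.46). Birc5 was at 9.53, 9.44, 9.05 and 8.89 against 9.56, 9.36, 8.98 and 9.18 on polysomes, a difference of 0.04 ± 0.16 (-0.30 to 0.39). Plk1 was at 11.85, 11.87, 11.01 and 11.13 against 11.52, 11.77, 10.98 and 11.25 in total RNA, a difference of -0.08 ± 0.27 (-0.65 to 0.48). These sets also overlapped. Cep55, the abscission protein, had the lowest polysomal value at -0.43 ± 0.28 (-1.02 to 0.17).

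The fetal livers differed by number more than by treatment. The mean of the 42 genes was 9.67 to 10.05 on the 4 arrays of number 1 and 9.93 to 10.27 on those of number 2, against 9.27 to 9.45 for number 3 and 9.15 to 9.5 for number 4. The labels do not say what a fetal number stands for, and livers with the same number deviated together from their group means. The mean of 16 erythroid markers moved with it, at 12.40 to 12.54 and 12.46 to 12.58 for numbers 1 and 2 and at 11.70 to 11.80 and 11.55 to 11.91 for numbers 3 and 4. Fetal liver is a site of red cell formation, and all 16 erythroid markers were higher in fetal than in PHx total RNA, by a median of 4.36. Of all clusters, 19.9% were called higher there. Gata1, the erythroid transcription factor, ranged from 10.16 to 11.66 in fetal total RNA with DMSO and was at background in PHx liver, where its mean was 6.40. The 12 hepatocyte markers stayed between 13.50 and 13.74 on the fetal arrays. The part of the erythroid cells in the fetal levels of the mitosis genes was not tested. Blocking on the number left 0 genes called in both fractions.

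**Figure D4:**
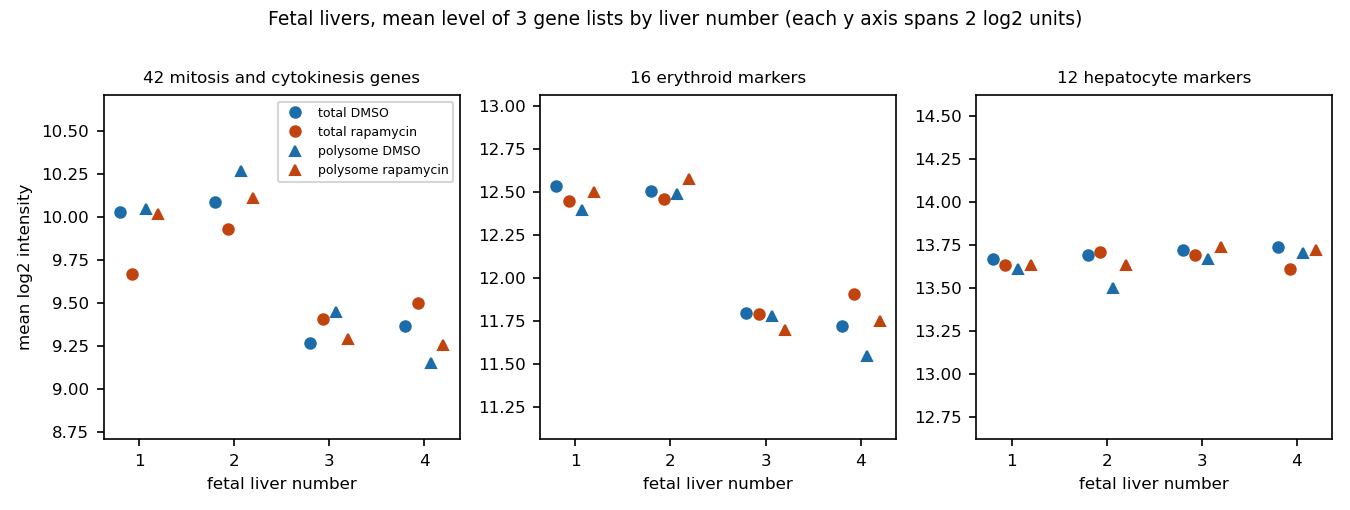
Mean log2 intensity (y axis, each panel spanning the same number of units) of the 42 mitosis and cytokinesis genes, 16 erythroid markers and 12 hepatocyte markers on the fetal arrays, by liver number (x axis); circles are total and triangles polysomal RNA, blue is DMSO and orange rapamycin. Numbers 1 and 2 lie above 3 and 4 in the first and second panels, and the hepatocyte markers stay between 13.50 and 13.74.

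Fetal and regenerating livers with DMSO had levels of the same order. Against refed liver, all 41 genes were higher in fetal total RNA, by a median of 3.94 (range 1.73 to 5.69), where 28.1% of all clusters were called higher. This comparison and the PHx comparison share the refed arrays. Compared directly, 1 gene was higher in fetal liver and 5 were lower, against 19.9% and 17% of all clusters, with a median of -0.23. Trim59 was at 10.56, 10.70, 9.96 and 9.73 in fetal and 8.27, 8.62 and 8.49 in PHx livers, apart by 1.78 ± 0.32 (adjusted p = 2.8e-05). Cep55 was at 7.47, 7.82, 6.91 and 7.05 against 8.50, 9.29 and 9.21, apart by -1.69 ± 0.30 (adjusted p = 2.4e-05). Both sets were fully separated. Pbk, Parpbp, Mad2l1 and Kif20a were lower in fetal liver, with differences of -1.54, -1.13, -1.05 and -0.91. Leaving out single arrays gave 5 to 9 calls, and Cep55, Pbk, Trim59, Mad2l1 and Parpbp were called in each.

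Whether the rapamycin difference itself differed between models was tested as an interaction. Refed livers were taken after 3 h of food begun 1 h after injection, and PHx livers 24 h after surgery. Fetuses received 50 µg each and adults 250 µg per 100 g. Time from injection and dosing cannot be told apart from the model. In total RNA, 13 of 41 genes passed with a lower value in PHx than in refed livers, against 0.488% of all clusters, with a median of -1.76 over the 41. Of the 13, 12 were at or below background in refed livers with DMSO, where a fall could not have been measured, so for these the test largely restates the PHx difference. The exception, Stmn1, had the lowest adjusted p, at -2.30 ± 0.37 (0.00185), since it was -1.30 in PHx and 1.00 in refed livers. Cdkn3, Pttg1, Ect2, Cdc20, Kif20a and Trim59 differed by -2.44, -2.41, -2.57, -2.48, -2.34 and -2.32, and Nuf2, Tpx2, Cep55, Racgap1, Birc5 and Cep128 made up the rest. On polysomes 5 genes (Birc5, Cep128, Nek2, Cdkn3 and Ccnb2) passed, against 0.11% of clusters, and of these 4 were at or below background in refed livers and Birc5 was above it. With cyclic loess 7 genes passed in total RNA and 1 on polysomes, where 26 and 6 of 10860 clusters were called lower. With no filter on low values 3 passed on polysomes, where 9 of 15515 clusters were called lower.

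Between PHx and fetal livers, 1 gene passed in each fraction, Birc5, by -1.57 ± 0.28 in total RNA (adjusted p = 0.0409) and -1.82 ± 0.28 on polysomes (adjusted p = 0.00311). It was the only cluster of the 10860 called lower in either fraction (0.00921%). In total RNA that call was not made with cyclic loess or with no filter, which both gave 0. With the replicate number as a block over all 40 arrays 34 and 16 genes passed, where 0.626% and 0.221% of all clusters were called lower. Same-numbered DMSO and rapamycin arrays deviated together in fetal livers but not after PHx, so this block pairs only part of the samples. The median over the 41 genes was -1.63 in total RNA and -1.43 on polysomes, with 40 and 39 genes at an unadjusted p under 0.05, against 6.11% and 6.53% of all clusters. The counts moved with single arrays, and shares of all clusters are not given for those fits. Without the second rapamycin array of the PHx model, 36 and 29 genes passed in total RNA against refed and fetal livers, and 21 and 20 on polysomes. Without the first DMSO array of the PHx model the total RNA counts were 21 and 9 and the polysomal ones 6 and 4, and without the second refed total DMSO array 33 passed against refed livers. Against fetal livers, leaving out the first or the second fetal total DMSO array gave 6 each. Without the third rapamycin array of the PHx model 1 gene passed against refed livers in total RNA, and 3 passed without its rapamycin array 1, DMSO array 2 or DMSO array 3, or without DMSO array 3 or rapamycin array 2 of the refed livers. In total RNA against refed livers, 8 passed without refed DMSO array 1 or refed rapamycin array 3. Against fetal livers in total RNA, 0 passed without rapamycin array 1 or 3 or DMSO array 2 or 3 of the PHx model, and without DMSO array 3 or 4 or rapamycin array 2 or 4 of the fetal livers. On polysomes against refed livers, 3 passed without refed rapamycin array 2, and 1 without any other refed array or without DMSO array 2 or 3 or rapamycin array 1 or 3 of the PHx model. Birc5 passed on polysomes in every one of these fits, against both refed and fetal livers.

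The comparison of polysomal with total RNA asked which of these transcripts were over- or under-represented among ribosome-loaded messages. Polysomal and total arrays of 1 number deviated together and were taken as fractions of 1 liver, so differences were taken within numbers. In the 3 PHx livers with DMSO, 19 of 42 genes were above 0 in every liver and 13 below 0 in every liver. The share of all clusters with these patterns was not computed, so these counts only describe the list. With the liver as a block, 17 of 41 were called higher on polysomes and 14 lower, against 39.1% and 22% of all clusters. Without the block 4 were higher and 1 lower, against 28.8% and 15%. Without the block, the 5 calls became 1 on leaving out polysomal array 2 or 3, 2 on leaving out total array 1 and 3 on leaving out total array 3. Counts near the share of all clusters say nothing particular about the list. The arrays had been normalised to each other, so the differences are relative to other transcripts and not a yield on ribosomes.

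With the liver as a block, all 4 genes of the cyclin B group were called higher on polysomes, against 39.1% of all clusters. In refed and fetal livers with DMSO, 0 of the 4 were. Cdkn3 was higher by 1.32, 0.93 and 0.86 in the 3 PHx livers with DMSO, and Ccnb2 by 0.88, 0.80 and 0.83. Blocked on the liver these were 1.04 ± 0.11 (adjusted p = 2.82e-06) and 0.84 ± 0.08 (adjusted p = 5.78e-07). Pttg1 was higher by 0.94, 0.76 and 1.07 and Birc5 by 0.95, 0.60 and 1.01, each in all 3 livers. Knstrn, Spc25, Ube2c, Aurkb, Cdca8, Aurka, Mad2l1, Cep55, Nek2, Cep128 and Racgap1 were also higher.

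With the liver as a block, 6 of the 8 spindle motors and microtubule proteins were called lower on polysomes and 0 higher. Of all clusters, 22% and 39.1% were. With rapamycin 4 of the 8 were lower, while Nusap1 and Stmn1 were higher. In refed livers with DMSO, Tpx2 and Stmn1 were higher and 0 lower. Without the block, 1 of all 41 genes was called lower after PHx with DMSO. Kif4a, a chromosome-bound motor, stood at -0.74, -0.76 and -1.05 in the 3 PHx livers with DMSO, and Kif11 stood at -0.37, -0.62 and -1.01. Hmmr, a spindle assembly protein, was at -0.53, -0.70 and -1.27. Top2a had the lowest values, -0.80, -1.19 and -1.56, or -1.18 ± 0.11 blocked on the liver (adjusted p = 7.52e-07). In these 4 genes every PHx liver with DMSO was below 0. Kif2c, Dlgap5, Nuf2, Incenp, Prc1, Kif20a, Tpx2, Parpbp, Plk1 and Kif23 were lower by smaller amounts, from -0.52 to -0.20.

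**Figure D5:**
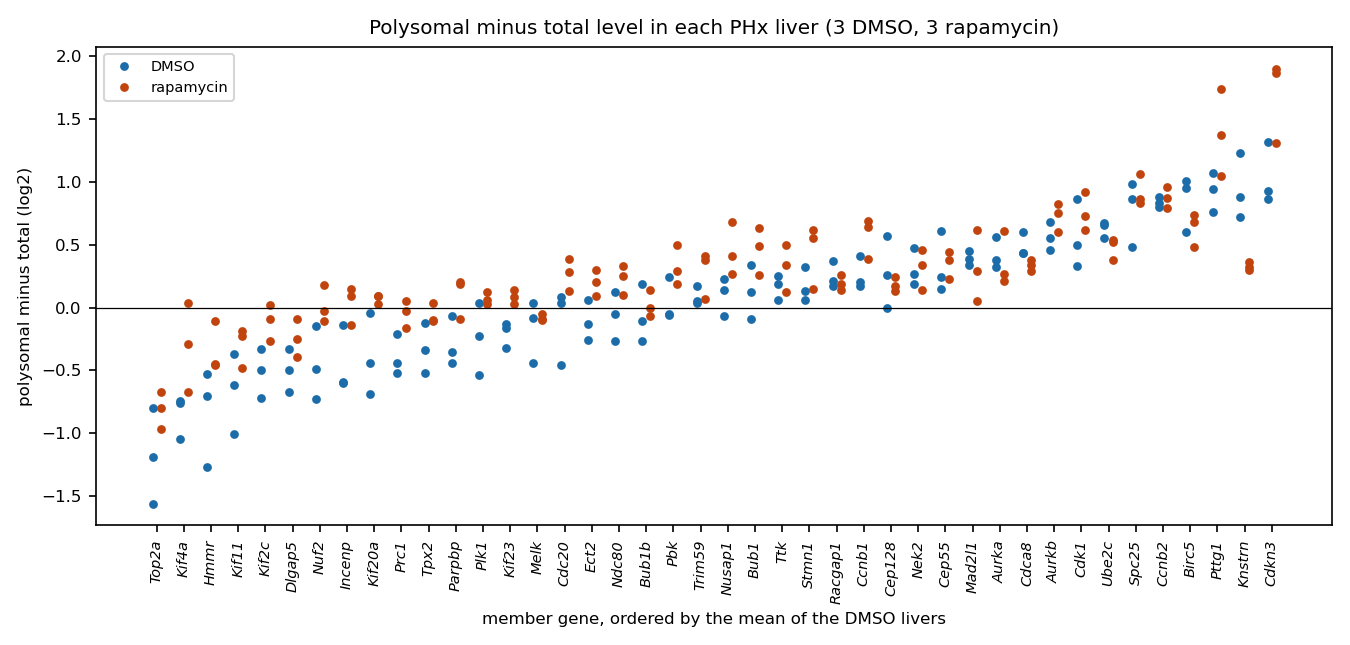
Polysomal minus total log2 level (y axis) in each of the 3 DMSO (blue) and 3 rapamycin (orange) PHx livers for the 42 genes (x axis, ordered by the mean of the DMSO livers). Points run from -1.56 for Top2a to 1.90 for Cdkn3, and orange points lie above blue ones for most genes.

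With rapamycin, 24 genes were higher on polysomes and 5 lower with the liver as a block, against 38% and 21.6% of all clusters, and 3 and 0 without it, against 27.8% and 14.4%. Cdkn3 was at 1.90, 1.31 and 1.87 and Pttg1 at 1.37, 1.05 and 1.74 in the 3 rapamycin livers. Both stood above 0 in every liver, by 1.69 ± 0.11 and 1.39 ± 0.11 with the block. Top2a, Hmmr, Kif4a, Kif11 and Dlgap5 were lower, and Top2a was at -0.97, -0.80 and -0.67. Whether rapamycin changed the difference between the fractions was tested as an interaction, and 0 of 41 genes passed with or without the block, as did 0% of all clusters. At an unadjusted p under 0.05 there were 0 genes without the block, against 1.45% of all clusters. There were 23 with the block, where the share of all clusters was not computed, so that count says nothing particular about the list. The interaction was above 0 for 33 of 41 genes, with a median of 0.28 against 0.01 over all clusters, with no gene called. The sign changed for 29 of the 41 when single arrays were left out. Without the block, leaving out total rapamycin array 2 gave 13 genes higher on polysomes and leaving out array 1 gave 1, Cdkn3, which was called in every such fit.

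Fetal and refed livers showed fewer such differences. In fetal livers with DMSO, 1 gene was higher on polysomes without the block (Pttg1) and 0 lower, against 8.1% and 6.38% of clusters, and with it 2 were higher and 2 lower, against 15.9% and 12.1%. Pttg1 was at 0.59, 0.56, 0.70 and 0.48 in the 4 livers and Hmmr at -0.65, -0.36, -0.31 and -0.51, each on one side of 0 throughout. The call of Pttg1 was not made without polysomal array 1 or 2 or total array 3 or 4. Cdc20 was at -0.78, -0.02, -0.82 and -1.67, a wide spread, and Bub1b was higher by 0.42 ± 0.12 with the block. In refed livers with DMSO, Pttg1 and Mad2l1 were higher and Ccnb2 lower without the block, against 19.5% and 5.14% of clusters, at levels near background. Leaving out single refed arrays gave 0 to 6 calls: 0 without total array 3, 1 without total array 1 or polysomal array 2 or 3, and 6 without total array 2. With the block 5 were higher and 0 lower, against 31.7% and 10.8%. Pttg1 was above 0 in every DMSO liver of the 3 models.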

How the data were processed

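The deposited table holds linear signal intensity per transcript cluster on each array, made by the authors with RMA (version not given in the sources used here) per the submitters' processing notes, which corrects background, normalises arrays and summarises probes. The set of arrays normalised together is unknown here. Values were converted to log2 here. Of 28826 clusters, 15209 had 1 gene symbol in the platform annotation, 306 several and 13311 none listed here. Of the 15209 single-symbol clusters, 15178 matched a RefSeq gene.

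Clusters with a symbol and a mean log2 level of at least 6.7, the 30th percentile of named clusters, were tested (10860). Group means were fitted in limma 3.58.1 (R 4.3.3) with an intensity trend, within each model for comparisons inside it and over all 40 arrays across models, with Benjamini-Hochberg adjustment over the 10860. The script was tested on simulated data. The main fits held both RNA fractions and had no term for the liver. Polysomal and total arrays of the same number were thus treated as independent, although their deviations correlated, as given below. Standard errors and p-values of the main fits for comparisons between livers therefore draw on more arrays than livers, which was not corrected there. The number of arrays limits the precision, and the labels number biological replicates without naming animals, so p-values measure the spread between these samples.

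The deviations of polysomal and total arrays of the same number from their group means correlated at 0.328 to 0.818. Such arrays were taken as fractions of 1 liver here, which a correlation alone does not establish. DMSO and rapamycin arrays of the same number correlated at 0.425 to 0.751 in fetal livers, but at -0.065 to 0.276 after PHx and -0.619 to 0.392 after refeeding. Per-array values are given for at least 1 gene of each role and for genes that depart from the others, and up to 4 genes are named from each further list. Alternatives were no filter, cyclic loess, no intensity trend and all 40 arrays in 1 fit. Others were another background threshold, a replicate block and leaving out each array. The second cluster of Ccnb2 was read beside the first. A fetal block over both fractions was added after seeing the data. The genes, lists and tests were chosen with earlier results of these data known.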

Additional observations from a re-analysis of the deposited data

Results flagged for a closer look

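In 3 of 172 groups of 4 fetal livers a single array stood apart from the others, where chance flags about 1 in 20. All 3 were in fetal total RNA with rapamycin. Ccnb1 was at 10.92 in liver 2, above the other livers at 10.28 to 10.39. Pbk was at 9.08 in the same liver, above 8.35 to 8.45. Birc5 was at 8.66 in liver 1, below 8.99 to 9.06.

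The rapamycin difference differed between models by a test of the difference itself. Time from injection and dosing also differed between models and cannot be told apart from them. Against refed livers, 13 genes passed with a lower value after hepatectomy in total RNA and 5 on polysomes, but 12 and 4 of these were at or below background in refed livers with DMSO, where a fall could not have been measured. Against fetal livers, 1 gene passed in total RNA and 1 on polysomes, Birc5 in both.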

How the results depend on the processing

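Of 224 calls over the comparisons, 0 changed sign under any alternative or on leaving out an array. Of 637 values not called, 275 changed sign in at least 1 of these fits, and 26 other than by leaving out an array. With the replicate number as a block, calls for polysomal against total RNA moved to 31 after hepatectomy with DMSO and 29 with rapamycin. They moved to 5 in refed and 4 in fetal livers. Of all clusters, 61%, 59.6%, 42.5% and 28% were called in either direction. In these fits the block is the number, taken as the liver. Across models, where the number is only shared, the block gave 12 calls for fetal against hepatectomised livers, 4 higher and 8 lower. Of all clusters, 21% were called higher and 19.2% lower there. For the difference in rapamycin effect the block gave 38 (total) and 27 (polysomes) against refed and 34 and 16 against fetal livers. The shares of all clusters called lower were 2.67%, 0.608%, 0.626% and 0.221%. The block changed no other call count by over 1.5 times. Cyclic loess gave 1 call, lower, for polysomal against total RNA in refed livers, where 921 of 10860 clusters were called lower and 1448 higher. It gave 0 in fetal livers, where 859 and 718 were. For the difference against refed livers it gave 7 and 1 in total and polysomal RNA, where 26 and 6 clusters were called lower. Against fetal livers in total RNA it gave 0. No filter gave 3 for the polysomal difference against refed livers, where 9 of 15515 clusters were called lower, and 0 for the total difference against fetal livers. All 40 arrays in 1 fit gave 1 call, higher, for rapamycin in refed total RNA, where 227 of 10860 clusters were called higher. That fit gave 0 for polysomal against total RNA in fetal livers. The cause of these shifts was not tested.

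Leaving out 1 array gave, for rapamycin after hepatectomy, 2 to 40 calls on polysomes and 0 to 41 in total RNA, and 0 to 2 in refed total RNA. Shares of all clusters are not given for fits without an array. Polysomal against total RNA gave 1 to 5 (hepatectomy, DMSO), 1 to 13 (hepatectomy, rapamycin), 0 to 6 (refed) and 0 to 1 (fetal). Fetal against hepatectomised livers gave 5 to 9, and hepatectomised against refed livers with rapamycin 35 to 38. The differences in rapamycin effect gave 1 to 36 (total) and 1 to 21 (polysomes) against refed and 0 to 29 and 1 to 20 against fetal livers. The other comparisons stayed at 0 or 41. Signal limits the refed livers, where 31 genes were near background.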
